A study of Bos taurus with 2 samples.

Results

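The mir-26 family of the bovine mammary gland is described here through its members mir-26a and mir-26b. They were taken by name from the known miRNAs, and both arms were searched. The family had 2 members of the 884 unique miRNAs, and 283 of the 884 were known bovine miRNAs. Each member was listed with its 5p arm and passed as tested, since no filter on low reads was applied. The lactation library came from the mammary gland of 1 multiparous Holstein cow that was 6 years old and 2 months in milk. The non-lactation library came from 1 multiparous Holstein cow of 4 years that gave no milk and was not pregnant. Neither cow carried an allele or a treatment that the sources name. There was 1 library per condition, so age, animal and stage cannot be told apart, and no difference has a replicate check among the libraries. The study also ran a microarray on RNA pooled within each stage, with further cows added, which was not used here.

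A miRNA pairs with its target mRNAs mainly through its seed, the bases 2 to 8 from the 5′ end, and lowers their translation or stability. The genes of the mir-26 family lie within genes of the CTDSP family, which code for small phosphatases that act on the C-terminal domain of RNA polymerase II and on other proteins. In human and mouse cells mir-26 is known for repression of EZH2, the histone methyltransferase of the Polycomb complex, and in goat mammary epithelial cells for effects on the synthesis of milk fat.

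The mature sequences are shown first, because the members differ so little that the reads are split between them by a few bases. Both begin with the same seed, given in capitals.
mir-26a-5p: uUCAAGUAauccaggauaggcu
mir-26b-5p: uUCAAGUAauucaggauagguu
The members were identical at 20 of 22 positions. Counted from the 5′ end, with the base of mir-26a-5p first, the differences were C11U and C21U, both outside the seed. The pre-miRNA of mir-26a was placed on the plus strand of chromosome 22 at chr22:11464097-11464186, and that of mir-26b on the plus strand of chromosome 2 at chr2:110812687-110812771 (BTA 4.0). In the RefSeq annotation of another assembly, ARS-UCD2.0, MIR26A-1 lies within CTDSPL, MIR26A-2 within CTDSP2 and MIR26B within CTDSP1. Whether these are introns was not looked up here.

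Another 5 listed sequences were related to the members, by the seed, by the first 16 bases or by the pre-miRNA. They are shown because they carry extended, shortened or opposite-arm forms of the family, with the bases 2 to 8 in capitals.
PC-26-5p: uUCAAGUAauccaggauaggcugg
PC-26-1-5p: cUUCAAGUaauccaggauaggcuu
CN-302-3p: uUCAAGUAauccaggaaaa
CN-319-3p: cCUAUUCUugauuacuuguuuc
CN-468-3p: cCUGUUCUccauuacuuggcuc
PC marks a miRNA conserved in other mammals and CN a candidate predicted from the genome. PC-26-5p kept the seed and was 24 nt long, 2 bases longer than mir-26a-5p at the 3′ end. PC-26-1-5p had 1 more base at the 5′ end, so its bases 2 to 8 were no longer those of the family. Against the pre-miRNA on chromosome 22, PC-26-5p had the difference U24G, and PC-26-1-5p had G1C and G24U, with the base of the pre-miRNA first. The end bases of both were therefore not those of this pre-miRNA. CN-302-3p matched mir-26a-5p over its first 16 bases and differed from it by U17A and G19A. Its own pre-miRNA on chromosome 10 differed from it by G8A, in the seed.

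The pre-miRNAs show where the arms lie. Capitals mark the 5p sequence of the member and, in the first pair, also the listed 3p sequence.
mir-26b, chr2:110812687-110812771, plus strand: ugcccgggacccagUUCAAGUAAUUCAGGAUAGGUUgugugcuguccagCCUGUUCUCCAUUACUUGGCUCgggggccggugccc
CN-319, chr5:60085852-60085935, plus strand: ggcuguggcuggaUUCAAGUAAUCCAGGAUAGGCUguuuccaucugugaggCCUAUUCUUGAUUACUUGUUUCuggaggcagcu
PC-26, chr22:11464101-11464183, plus strand: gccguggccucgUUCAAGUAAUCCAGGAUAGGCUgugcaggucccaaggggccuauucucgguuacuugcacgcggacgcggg
CN-468-3p lay in the pre-miRNA of mir-26b and is its 3p arm. CN-319-3p lay in a pre-miRNA of 84 bases on chromosome 5 that also held all of mir-26a-5p, and RefSeq lists MIR26A-2 with the same length and chromosome. The pre-miRNAs on chromosomes 22 and 5 thus gave the same mature 5p sequence, so the reads of mir-26a-5p cannot be told apart by locus. The loops differed, with 13 bases between the arms of mir-26b and 16 between those of CN-319. No other pre-miRNA was listed within 10 kb of the loci on chromosomes 22, 2 and 5, and the nearest were mir-128 at 1741 kb, mir-375 at 535 kb and CN-318 at 487 kb. A further entry named mir-26b, of 19 nt on chromosome 11 (chr11:7193987-7194056, minus strand), had no reads of its own.

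Values are reads of the most abundant sequence of each miRNA, scaled to a library of 1000000 clean reads (RPM). The most abundant sequences of all listed miRNAs summed to 5745961 reads for the lactation library, against 7879028 for the non-lactation library, which is 48.0% of the clean reads of the lactation library and 49.3% of those of the non-lactation library. Intervals are 95% intervals, exact for a share or a ratio (Clopper-Pearson) and for a level (Poisson), and Woolf's for a ratio of ratios. They hold counting error alone, and PCR copies are not separate molecules. Fisher's exact test (two-sided, Bonferroni over 883 miRNAs, threshold 0.05) compares these libraries, not the conditions.

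mir-26a-5p was among the most abundant miRNAs of the gland and was lower in the lactation library. It had 275447 reads in the lactation library against 895738 in the non-lactation library, or 23021 RPM (22935 to 23107) against 56095 RPM (55979 to 56212). It held 4.89% (4.87% to 4.91%) of the reads of known miRNAs in the lactation library against 11.7% (11.68% to 11.72%) in the non-lactation library. Its rank among known miRNAs was 5 in the lactation library against 3 in the non-lactation library. The ratio, lactation over non-lactation, was 0.410 (0.409 to 0.412), a log2 ratio of -1.28, which is 2.44-fold lower (exact test, adjusted p = 8.83e-298, the smallest value kept here). Of all miRNAs tested, 10.9% were called lower.

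mir-26b-5p had 108006 reads in the lactation library against 118498 in the non-lactation library, or 9027 RPM (8973 to 9081) against 7421 RPM (7379 to 7463). Its rank among known miRNAs was 11 in both libraries, and its share of their reads was 1.92% (1.91% to 1.93%) in lactation against 1.55% (1.54% to 1.56%) in non-lactation. The ratio was 1.22 (1.21 to 1.23), a log2 ratio of 0.28 (exact test, adjusted p = 8.83e-298). Of all miRNAs tested, 17.4% were called higher. This call rested on the scaling. With TMM factors the ratio was 1.01 and not called, with DESeq2 size factors it was 1.0, and without scaling it was 0.911 and called lower. mir-26b-5p was itself the middle of the 543 miRNAs listed above 0 in both libraries, with 271 at a lower and 271 at a higher ratio, and DESeq2 sets its factors from that middle.

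**Figure D1:**
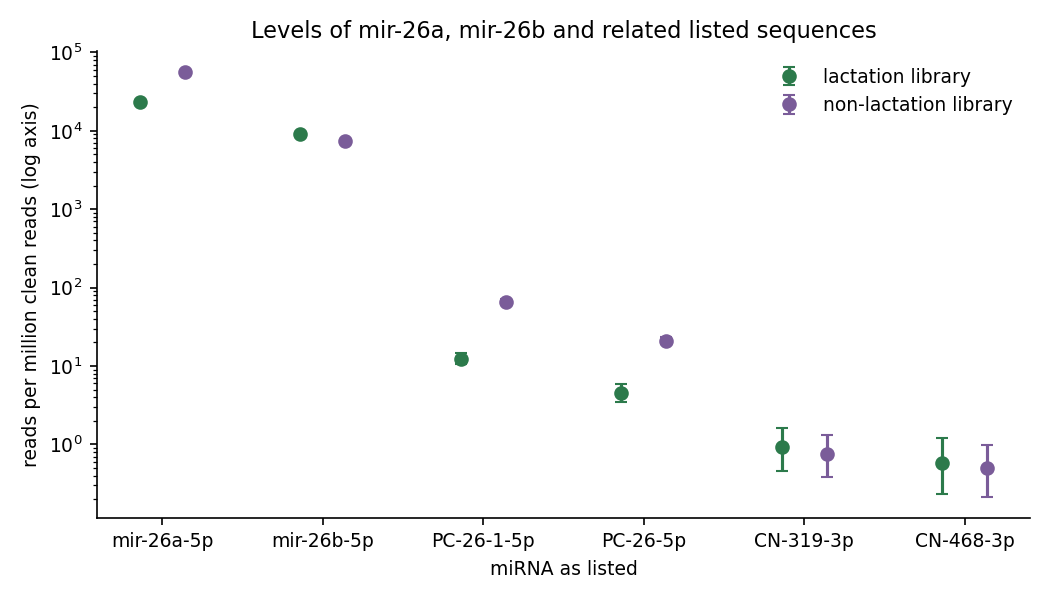
RPM (log axis) of the members and of 4 related sequences in the lactation library (left point of each pair) and the non-lactation library (right point). Bars are exact Poisson intervals of the counts; mir-26a-5p stood at 23021 RPM in lactation against 56095 RPM in non-lactation, and mir-26b-5p at 9027 RPM in lactation against 7421 RPM in non-lactation.

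At such depths the test calls almost any difference. All 10 miRNAs with at least 226504 summed reads, the number of mir-26b-5p, were called (100%), 5 of them higher and 5 lower, so the size of each difference is given beside the call. By size, mir-26a-5p was one of 62 of the 273 miRNAs with at least 100 summed reads that were at least 2-fold lower (22.7%), against 79 that were at least 2-fold higher. This split was 71 lower and 59 higher under TMM, 73 lower and 58 higher under DESeq2 scaling, and 83 lower and 50 higher on unscaled reads. Among the 273, 46 had a lower ratio than mir-26a-5p and 138 a lower ratio than mir-26b-5p. The median log2 ratio of the 273 was 0.26 with clean reads as totals. Relative to it mir-26a-5p was at -1.54 and mir-26b-5p at 0.03, distances that a single factor per library cannot change, since it shifts all miRNAs alike. Scalings that depend on abundance were not tried.

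**Figure D2:**
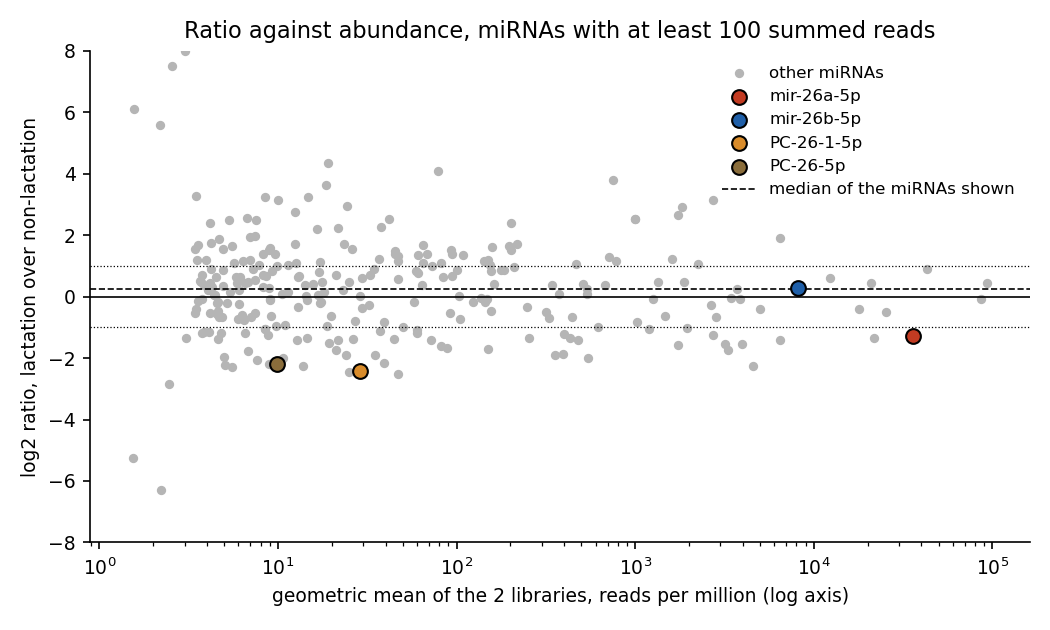
The log2 ratio, lactation over non-lactation, of the 273 miRNAs with at least 100 summed reads against their geometric mean level (log axis); the dashed line is their median, dotted lines mark 2-fold, and 4 miRNAs lie beyond the axis. mir-26a-5p lies at -1.28 at the abundant end, mir-26b-5p at 0.28 beside the median, and both PC sequences below -2.

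The balance between the members needs no library total. There were 2.55 reads of mir-26a-5p for each read of mir-26b-5p in the lactation library against 7.56 in the non-lactation library. The ratio of these ratios was 0.337 (0.334 to 0.341), so the balance was 2.96-fold lower in the lactation library (Fisher's exact test, p = 1.1e-299 as the smallest value kept, Bonferroni over 11 such comparisons of related sequences). All isomiRs, which are the length and sequence variants of a miRNA, gave 2.51 in lactation against 7.57 in non-lactation. mir-26b-5p made up 28.2% of the reads of the family in the lactation library against 11.7% in the non-lactation library. The members together held 32048 RPM in lactation against 63516 RPM in non-lactation, a ratio of 0.505 (0.503 to 0.506). This was 6.81% of the reads of known miRNAs in lactation and 13.2% in non-lactation.

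**Figure D3:**
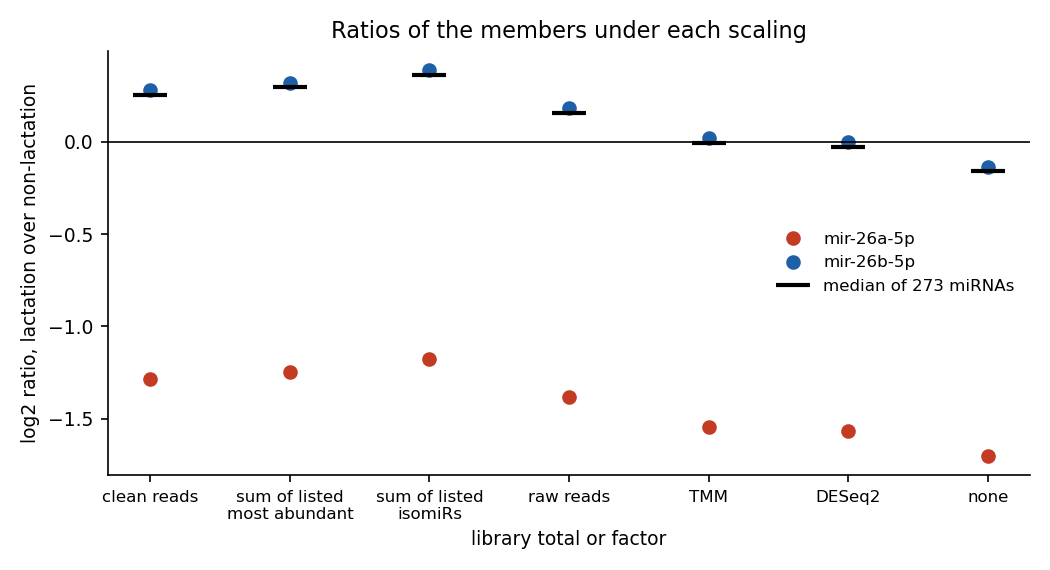
The log2 ratio, lactation over non-lactation, of both members and the median of 273 miRNAs (bars) under 7 library totals or factors. mir-26a-5p stays between -1.70 and -1.18, and mir-26b-5p follows the median from 0.39 to -0.13, on both sides of 0.

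The neighbours in rank placed the members among let-7 and other abundant miRNAs. In the lactation library let-7b-5p (58571 RPM) and let-7g-5p (24340 RPM) stood above mir-26a-5p, and let-7c-5p (21292 RPM) and mir-21-5p (15463 RPM) below it. In the non-lactation library let-7f-5p (89097 RPM) and let-7a-5p (80226 RPM) stood above it, and mir-29a-3p (34524 RPM) and let-7b-5p (31410 RPM) below. let-7 miRNAs are known for promoting differentiation and mir-21 for its high level in many tissues. Around mir-26b-5p the lactation library had mir-29a-3p (13613 RPM) and mir-30a-5p (12530 RPM) above, and mir-200c-3p (8172 RPM), an epithelial miRNA, and mir-148a-3p (5060 RPM), which is abundant in milk, below. The non-lactation library had mir-199a-3p (9968 RPM), a miRNA of connective tissue, and mir-103-3p (9965 RPM) above, and mir-107-3p (7217 RPM) and mir-25-3p (6761 RPM) below. mir-107-3p was listed at 0 reads in the lactation library, but it shares its listed sequence with mir-103-3p, so its place is uncertain. In this order the counting intervals of both members overlapped those of no neighbour. The spread between cows is unknown.

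By the size of the ratio, the 3 known miRNAs nearest to mir-26a-5p among 103 with at least 1000 summed reads were mir-140-3p, mir-222-3p and mir-29a-3p, with log2 ratios of -1.26, -1.34 and -1.34. mir-140-3p had 1750 RPM in the lactation library against 4196 RPM in the non-lactation library. Nearest to mir-26b-5p were mir-152-3p, mir-145-5p and mir-30c-5p at 0.24, 0.23 and 0.38. The likeness is over only 2 libraries.

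The longer sequences were more unequal between the libraries than mir-26a-5p. PC-26-1-5p had 149 reads in the lactation library against 1061 in the non-lactation library, or 12.5 RPM (10.5 to 14.6) against 66.4 RPM (62.5 to 70.6), which is 5.34-fold lower (4.49 to 6.38; exact test, adjusted p = 1.94e-115). PC-26-5p had 55 reads in lactation against 336 in non-lactation, or 4.60 RPM (3.46 to 5.98) against 21.0 RPM (18.9 to 23.4), which is 4.58-fold lower (3.43 to 6.20; exact test, adjusted p = 1.25e-31). Relative to mir-26a-5p, PC-26-1-5p was 2.19-fold lower (1.84 to 2.60; exact test, p = 1.05e-21 over the 11 comparisons) and PC-26-5p 1.88-fold lower (1.41 to 2.50; exact test, p = 4.37e-05) in the lactation library. All isomiRs of PC-26-1-5p were less unequal than its most abundant sequence, at 562 reads in lactation against 2877 in non-lactation. Its other isomiRs, relative to that sequence, were 1.62 times as high in the lactation library (1.32 to 1.98; exact test, p = 2.30e-05 over the 11 comparisons). Between the PC sequences the ratio of ratios was 1.17 (0.836 to 1.63; exact test, p = 1.0), an interval that allows a difference in either direction. Of the 273 miRNAs, 7 had a lower ratio than PC-26-1-5p and 12 a lower ratio than PC-26-5p. Adding the reads of both to mir-26a-5p moved its log2 ratio only from -1.28 to -1.29.

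Sequences with the family seed other than the members were rare. The 4 unique miRNAs that shared it were both members, PC-26-5p and CN-302-3p. The last pair held 55 reads in the lactation library against 344 in the non-lactation library, beside 383453 reads of the members in lactation and 1014236 in non-lactation. CN-302-3p was listed at 0 reads in the lactation library against 8 in the non-lactation library, which was not called. A count of 0 allows up to 3 reads, so a difference was not detectable at this depth.

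The 3p arms had few reads. CN-319-3p had 11 reads in the lactation library against 12 in the non-lactation library, or 0.919 RPM against 0.751 RPM. CN-468-3p had 7 reads in lactation against 8 in non-lactation, or 0.585 RPM against 0.501 RPM. Neither was called (exact test, adjusted p = 1.0 each), and their ratios of 1.22 (0.489 to 3.03) and 1.17 (0.360 to 3.69) leave room for a change in either direction. For each read of CN-319-3p there were 25041 reads of mir-26a-5p in the lactation library against 74645 in the non-lactation library. The ratio of CN-319-3p to mir-26a-5p reads was 2.98 times as high in the lactation library (1.32 to 6.76), which was not called over the 11 comparisons (exact test, p = 0.125). The 5p reads can come from chromosomes 22 and 5 but CN-319-3p from chromosome 5 alone, so this is not the arm ratio of a single pre-miRNA. For each read of CN-468-3p there were 15429 reads of mir-26b-5p in lactation against 14812 in non-lactation (exact test, p = 1.0 over the 11 comparisons). The 3p arms were identical at 17 of 22 positions, whereas the 5p arms were at 20. No table listed a 3p sequence of the pre-miRNA on chromosome 22.

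The most abundant sequence held about the same share of isomiR reads in both members. All isomiRs of mir-26a-5p had 403436 reads in the lactation library against 1394797 in the non-lactation library, and its most abundant sequence held 68.3% (68.1% to 68.4%) against 64.2% (64.1% to 64.3%) of them. All isomiRs of mir-26b-5p had 160792 reads in lactation against 184262 in non-lactation, with shares of 67.2% (66.9% to 67.4%) in lactation and 64.3% (64.1% to 64.5%) in non-lactation. The share was 4.06 percentage points higher for mir-26a-5p (exact test, Bonferroni over 248 known miRNAs, p = 2.48e-298) and 2.86 points higher for mir-26b-5p (exact test, p = 1.92e-67) in the lactation library. Of the 248, 14.5% were called higher. Among 99 known miRNAs with at least 1000 isomiR reads in each library, 21 had a larger positive difference than mir-26a-5p and 26 than mir-26b-5p, and the median difference was -0.50 points. By level of the share, mir-26a-5p ranked 9 of the 99 in lactation and 17 in non-lactation, and mir-26b-5p ranked 13 in lactation and 16 in non-lactation. With all isomiRs the ratio of mir-26a-5p was 0.386, which is 2.59-fold lower, and that of mir-26b-5p was 1.16.

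**Figure D4:**
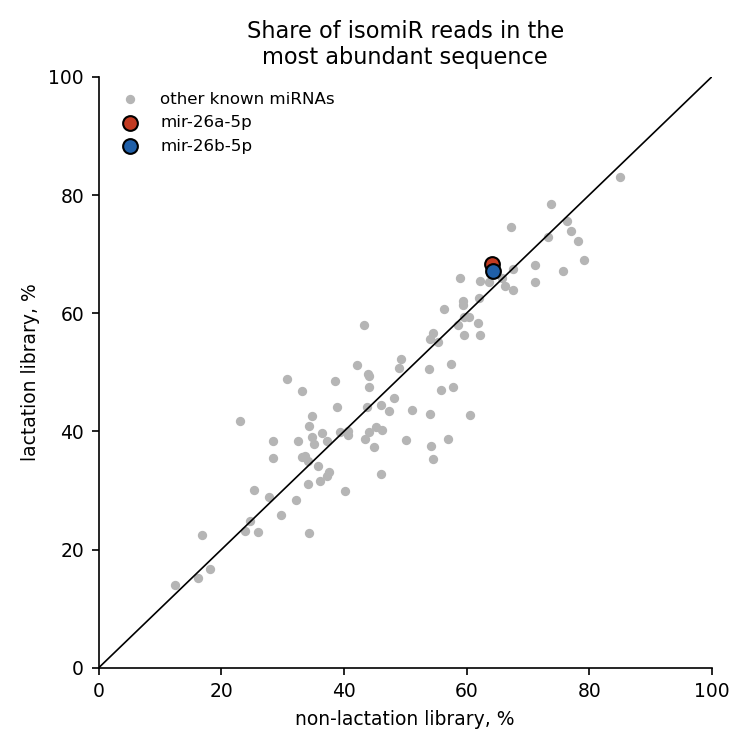
The percentage of isomiR reads held by the most abundant sequence of 99 known miRNAs, in the lactation library (vertical axis) against the non-lactation library (horizontal axis); the line marks equal shares. mir-26a-5p (68.3% in lactation, 64.2% in non-lactation) and mir-26b-5p (67.2% in lactation, 64.3% in non-lactation) lie side by side above the line.

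As listed, the number of kinds of isomiRs, that is of distinct sequences, set mir-26a-5p apart, though these listed numbers are in doubt, as described below. mir-26a-5p was listed with 28 kinds in the lactation library against 38 in the non-lactation library, or 14408 isomiR reads per kind in lactation and 36705 in non-lactation. mir-26b-5p had fewer reads but 188 kinds in lactation and 166 in non-lactation, with 855 reads per kind in lactation and 1110 in non-lactation. Of the 16 known miRNAs with at least 100000 isomiR reads in the lactation library, mir-26a-5p had the lowest number of kinds, and the next was let-7i-5p with 187 kinds at 122311 reads. Of 23 such miRNAs in the non-lactation library it was again the lowest, before mir-25-3p with 143 kinds at 151592 reads. The medians of these miRNAs were 295 kinds in lactation and 258 in non-lactation. The 8 known miRNAs within 2 kinds of mir-26a-5p in the lactation library had at most 2786 isomiR reads, and the 2 in the non-lactation library at most 8837.

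PC-26-1-5p was listed with the same numbers of kinds as mir-26a-5p, 28 in lactation and 38 in non-lactation, although it had only 562 isomiR reads in lactation and 2877 in non-lactation. No other unique miRNA had this pair of numbers. Of 91 unique miRNAs with at least 20 kinds in each library, 4 shared their pair of numbers with another, and the other pair was mir-200b-3p with CN-263-3p. Those were listed with the same reads as well, 28517 in lactation and 6598 in non-lactation, whereas mir-26a-5p and PC-26-1-5p shared the kinds but not the reads. Known and conserved miRNAs within 2-fold of the isomiR reads of PC-26-1-5p had a median of 13 kinds and at most 22 in the lactation library (43 miRNAs), and a median of 23 and at most 52 in the non-lactation library (42 miRNAs). Whether the kinds listed under mir-26a-5p are its own was not tested.

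**Figure D5:**
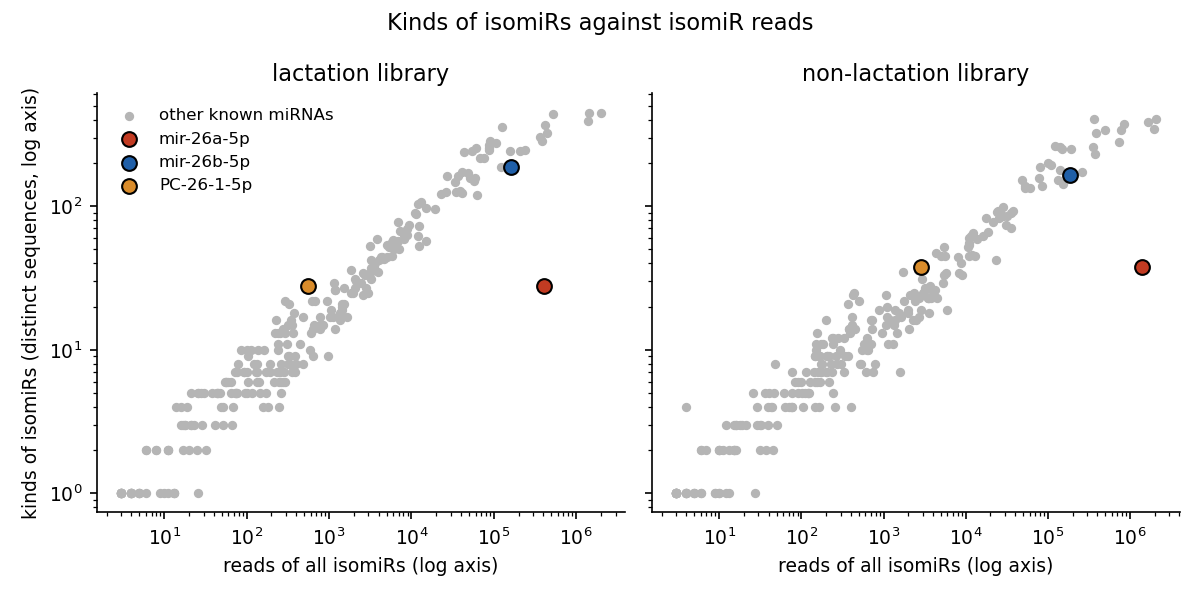
Kinds of isomiRs against isomiR reads (both log axes) of the known miRNAs and PC-26-1-5p in the lactation library (left) and the non-lactation library (right). mir-26a-5p, listed with 28 kinds in lactation and 38 in non-lactation, lies far below the other abundant miRNAs, at the height of PC-26-1-5p. It was not tested whether these kinds are those of mir-26a-5p.

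Other miRNAs known to repress EZH2 in human or mouse cells did not share one direction. Of a list of 7, 6 were listed, 3 were called higher and 1 lower. Their median log2 ratio was 0.56, beside 0.26 over the 273 miRNAs with at least 100 summed reads. The median over all 883 was 0.42, the log2 ratio that equal reads in both libraries give. A miRNA with 3 reads in 1 library and a listed 0, set to 3, in the other also gets this value, so this median partly reflects that setting. Over the 543 miRNAs listed above 0 in both libraries the median was 0.28. These medians hold for clean reads as totals, and the other scalings tried shift them alike. Over all 883, 17.4% were called higher and 10.9% lower. Among the 273 with at least 100 summed reads 116 were called higher and 89 lower, with Bonferroni over these 273 alone, which is less strict. let-7a-5p was one of the 10 deepest miRNAs, which were all called (100%). mir-101-3p had 1816 RPM in the lactation library against 6051 RPM in the non-lactation library, which is 3.33-fold lower (exact test, adjusted p = 8.83e-298). let-7a-5p had 108630 RPM in lactation against 80226 RPM in non-lactation (ratio 1.35), mir-98-5p 291 RPM in lactation against 149 RPM in non-lactation (ratio 1.95) and mir-124a-3p 119 RPM in lactation against 74.1 RPM in non-lactation (ratio 1.60). These 3 were called higher, and all 4 kept their direction under each scaling tried. For let-7a-5p this was narrow, since its lowest log2 ratio among the scalings was 0.02. mir-138-5p had 3.59 RPM in lactation against 3.26 RPM in non-lactation (43 against 52 reads; ratio 1.10), and its direction turned with the scaling. mir-214-3p had 2.17 RPM in lactation against 1.25 RPM in non-lactation (26 against 20 reads; ratio 1.73). Neither was called. mir-217 was not among the known miRNAs analysed here.

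Markers of cell types of the gland, and those of striated muscle, differed between the libraries as well. Their counts stand beside 17.4% called higher and 10.9% called lower over all miRNAs, many of which had too few reads to be called. Among the 273 with at least 100 summed reads, 116 were called higher and 89 lower, which is the nearer comparison for the deeper markers. These 2 counts used Bonferroni over the 273 alone, which is less strict than the adjustment of the marker calls. The 10 deepest miRNAs, which were all called (100%), held no marker of these lists. All 5 listed known miRNAs of the luminal epithelium were called higher and together had 12201 RPM in the lactation library against 1903 RPM in the non-lactation library. Conserved entries with the same names went both ways. PC-200a-3p, PC-200b-3p and PC-141-3p were called higher and PC-429-1-3p was not called. PC-429-2-3p was called lower, with 93 reads in lactation against 333 in non-lactation. The miRNAs of stroma and smooth muscle had 8626 RPM in lactation against 14522 RPM in non-lactation, with 2 of 5 called higher and 2 lower. mir-199a-3p carried this total, with 2100 RPM in lactation against 9968 RPM in non-lactation, and without it the other 4 had 6526.5 RPM in lactation against 4555 RPM in non-lactation. Of the called higher ones, mir-143-3p had a ratio of 2.35, and mir-145-5p fell below a ratio of 1 with TMM, DESeq2 or unscaled reads. mir-126-5p of the endothelium had 392 RPM in lactation against 120 RPM in non-lactation. The 4 miRNAs of striated muscle had 4480 RPM in lactation against 696 RPM in non-lactation, with 2 called higher. The 4 of leukocytes had 57.2 RPM in lactation against 102 RPM in non-lactation, with 2 called lower. No marker was at 0 in either library. The part of these markers in the ratios of mir-26a-5p and mir-26b-5p was not tested, and in whole tissue fewer cells of a type and less RNA per cell cannot be told apart.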

How the data were processed

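The authors filtered out adaptors, reads of low quality and reads of other RNA classes, mapped the rest to pre-miRNAs and the bovine genome BTA 4.0, and deposited raw counts per miRNA in 3 tables, as reads of the most abundant sequence, reads of all isomiRs and kinds of isomiRs. In the CN table the columns headed isomiR reads and kinds were exchanged, because their values required it, and 7 isomiR sums, blank or below the most abundant sequence, were not used. Of 884 unique miRNAs, 883 were tested. RPM used the clean reads given by the study. A listed 0 was set to 3 reads in ratios, and p-values were kept at 1e-300 or above before adjustment.

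The members and lists were chosen with earlier results of these data known. The text names the members with both arms, sequences related by seed (bases 2 to 8), by the first 16 bases with at most 1 mismatch or by pre-miRNA, the 2 known miRNAs above and below each member, the 3 nearest by log2 ratio, and 7 EZH2 repressors. let-7i-5p, mir-25-3p and CN-263-3p in the account of kinds, and the nearest pre-miRNAs, were named after their values were seen. The tests were checked on simulated counts with counting error alone, which hold no spread between cows and so cannot speak to it. Alternatives were other totals or factors, all isomiR reads, other minimums, folds and adjustments. Tests ran in Python 3.11.15 with scipy 1.17.1. Scaling factors were taken from edgeR 4.0.16 (TMM) and from DESeq2 1.42.0, under R 4.3.3. The RefSeq table gave names and nesting alone.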

Additional observations from a re-analysis of the deposited data

How the results depend on the processing

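Of 35 alternatives, 28 kept the direction and the side of the threshold, or a count within 1.5 times. Some of the 28 could not have come out otherwise. Benjamini-Hochberg adjustment leaves the ratio of a member as it is and cannot raise its adjusted p-value above that of Bonferroni. The alternative for the share of each member only adjusted over 99 instead of 248 miRNAs. The reads of PC-26-5p and PC-26-1-5p, when added to mir-26a-5p, were too few beside its own to change its ratio or the balance. All 9 for mir-26a-5p kept the direction and the side of the threshold, with log2 ratios between -1.70 and -1.18. Both for the balance of mir-26a-5p to mir-26b-5p did so too (-1.59 and -1.57). The log2 ratio of mir-26b-5p, 0.28 with clean reads as totals, was 0.020 with TMM factors (exact test, adjusted p = 0.695), 0.0 with DESeq2 factors and -0.13 without scaling (exact test, adjusted p = 1.20e-105), and between 0.18 and 0.39 under the other 5. The shift is that of the factors, since the median of 273 miRNAs moved by -0.26, -0.28 and -0.42. The number of miRNAs called different was 250, and 410 with Benjamini-Hochberg adjustment. The number at least 2-fold lower was 62, and 102 with a minimum of 10 summed reads, 33 with a minimum of 1000 and 16 at a fold of 4. No paired analysis was possible because each condition had 1 library and the labels carry no replicate numbers. The depth limits the 3p arms and CN-302-3p, at 12 reads or fewer per library.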
